A study of Mus musculus with 2 samples.

Results

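The Myc, Max and Mxd network is a family of transcription factor genes. Its members were chosen by name, as the rows of both count tables whose Ensembl identifier maps to Myc, Mycn, Mycl, Max, Mga, Mnt, Mxd1, Mxd3, Mxd4 or Mxi1. All 10 had a row, out of 43629 genes measured. The cells were mouse embryonic stem (ES) cells of 129/Ola background at passage 7, labelled as carrying a Dgcr8 knockout made with paired CRISPR/Cas9. Polyadenylated RNA was sequenced from 2 libraries of this 1 group, named A and B; A totals 27872396 counts and B 30327146. No wild-type library was analysed here, so the values are levels in knockout cells and no effect of the knockout was measured. The sample titles also carry the unexplained codes KO2 and d5, so the line and the time in culture behind these levels are uncertain. Separate cultures are not stated for A and B, nor whether the line is 1 clone, so the spread between A and B may be technical. In bulk RNA, fewer cells that express a gene and less of its RNA per cell cannot be told apart. Dgcr8 itself drew 1253 counts in A and 1942 in B; counts over a whole gene do not show which exons remain and so do not check the genotype.

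Max is the shared partner of the network. Its protein pairs with Myc, Mycn or Mycl through a basic helix-loop-helix leucine zipper, and such pairs bind the E-box, whose letters are CACGTG, and activate transcription. Mxd1, Mxd3, Mxd4, Mxi1 and Mnt pair with Max at the same DNA element and recruit the Sin3 corepressor and its histone deacetylases. Mga also pairs with Max, as part of a Polycomb complex (PRC1.6) that silences germ cell genes in mouse ES cells. In mouse ES cells Myc and Mycn are known to sustain self-renewal and can stand in for each other. Dgcr8 is needed to process most microRNAs, among them the miR-290 and miR-302 family of ES cells and let-7 of differentiated cells.

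Which of these microRNAs the network transcripts could pair with was read from the annotation. The mature sequences below (RefSeq, GRCm38.p6) carry the seed, bases 2 to 8, in capitals, since a match to the seed in the 3′ UTR is the usual mark of a target. The pair of miR-290 and miR-302 members shares 1 seed, and the miR-17 seed is offset from it by 1 base.
let-7a-5p: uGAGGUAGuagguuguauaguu
miR-294-3p: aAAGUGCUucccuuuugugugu
miR-302b-3p: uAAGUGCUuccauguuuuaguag
miR-17-5p: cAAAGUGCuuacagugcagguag

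The DNA match of the miR-290 and miR-302 seed, AGCACTT, occurred in the longest annotated 3′ UTR of 6 of the 10 network genes, with 9 matches in 23292 bases. It was found in 14.7% of 21010 protein-coding genes, and in 17.7% of those that reached 1 CPM in A and in B alike, where CPM scales a library's counts to a total of 1000000. Per 1000 bases of 3′ UTR there were 0.386 matches in the network genes and 0.121 over all genes. Mga, whose 3′ UTR spans 4616 bases, held 3 matches. Mxi1 held 2, and Mycn, Mnt, Mxd1 and Mxd3 held 1 each. The 3′ UTRs of Myc (466 bases), Mycl (1970), Max (1299) and Mxd4 (3105) held none. The miR-17 match, GCACTTT, was present in 4 of 10 network genes (11.8% of all genes), and in Mycn and in the last Mga site it overlapped the miR-290 and miR-302 match. The let-7 match, CTACCTC, was present only in Mxd1 among the 10 genes (9.02% of all genes). A match is a description of the letters and not a site shown to be used. The windows below lie in 3′ UTR exons (GENCODE M21, GRCm38), are written along the transcript and show the seed match in capitals.
Mycn, chr12:12936132-12936154, minus strand: caccttagAGCACTTtgaaatac
Mga, chr2:119965442-119965464, plus strand: gtaattccAGCACTTagaagact
Mga, chr2:119966744-119966766, plus strand: aggtcatcAGCACTTaacctttc
Mga, chr2:119969092-119969114, plus strand: ttgaagaaAGCACTTttaagggt
Mxi1, chr19:53372866-53372888, plus strand: ttacgttcAGCACTTgtctcatt
Mxd1 (let-7), chr6:86650222-86650244, minus strand: acattgtcCTACCTCagagatag

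**Figure D1:**
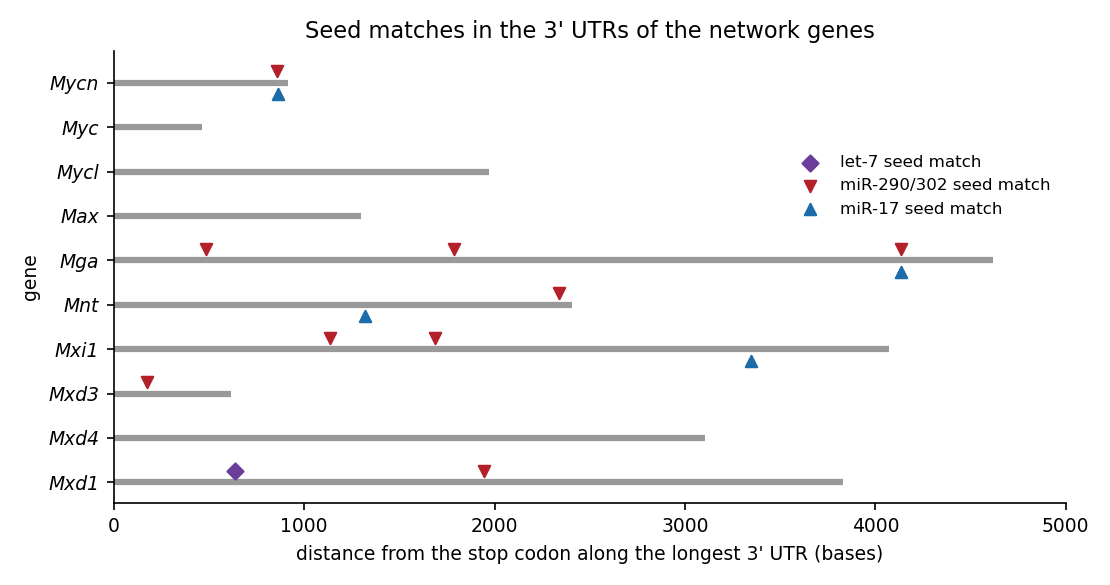
Seed matches along the longest annotated 3′ UTR of each network gene, with distance from the stop codon in bases on the x axis and 1 gene per row. Grey bars are the UTRs; triangles pointing down mark the miR-290 and miR-302 match, triangles pointing up the miR-17 match and the diamond the let-7 match. Mga holds 3 matches to the shared miR-290 and miR-302 seed, and Myc, Mycl, Max and Mxd4 hold none of the matches marked here. Other seeds were not searched.

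The E-box CACGTG was looked for in the promoters, from 250 bases before to 50 after the RefSeq start (GRCm38.p6). It reads the same on both strands. Promoters were matched for 9 of the 10 network genes, all but Myc, and 3 of their 11 promoters held it, against 7.15% of 32851 promoters of that length. These were Max, where it begins 3 bases before the start, Mnt and Mxd4. The windows show the E-box in capitals, along the gene's strand.
Max, chr12:76962236-76962261, minus strand: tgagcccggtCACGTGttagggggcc
Mnt, chr11:74830791-74830816, plus strand: ccacccaagcCACGTGtgcgcgcgcg
Mxd4, chr5:34187914-34187939, minus strand: gctgggccacCACGTGctgttgctaa

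The labelled cell type was checked against its markers. All 7 ES cell markers, among them Pou5f1, Nanog and Esrrb, lay between 159 and 4252 CPM in A and between 107 and 1767 in B. Of 6 fibroblast markers, which would point to feeder cells, 4 reached 1 CPM in both libraries. All 6 summed to 47.9 CPM in A and 30.1 in B, most of it Thy1 at 31.4 and 21.9. Col1a2 held 2 counts in A and 7 in B, and Col3a1 1 and 5. Of 6 endoderm markers 2 reached 1 CPM in both libraries, with a sum over all 6 of 56.1 CPM in A and 153 in B, most of it Lama1, and none of the 6 was at 0. The blood markers Ptprc and Lyz2 held 1 and 0 counts in A and 5 and 1 in B.

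All 10 network genes reached 1 CPM in both libraries, as did 30.6% of all genes measured. To compare genes, levels are given as RPKM, which divides CPM by the length of the gene's exons in units of 1000 bases. Each value with ± is the mean of A and B with its SD (n = 2), and intervals are exact 95% Poisson limits that cover counting error only. With the union of annotated exons as length, Mycn was the highest in both libraries and Mycl and Mxd3 held ranks 7 and 8. By mean RPKM the order was Mycn, Max, Myc, Mga, Mnt, Mxi1, Mycl, Mxd3, Mxd4 and Mxd1. Neighbours in this order whose values over A and B overlapped were Max and Myc, Myc and Mga, Mga and Mnt, Mycl and Mxd3, and Mxd4 and Mxd1. The median RPKM of the network was 8.57, beside 6.55 for every gene that reached 1 CPM in A and in B.

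Mycn was the most abundant Myc gene. Mycn (ENSMUSG00000037169, chromosome 12, 12936093 to 12941914, minus strand) drew 3933 counts in A against 3639 in B, or 141 CPM (137 to 146) in A and 120 CPM (116 to 124) in B. Its level was 42.8 RPKM in A and 36.4 in B, or 39.6 ± 4.53. This placed it at percentile 87.9 of the annotated genes that reached 1 CPM in A and in B.

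Myc came next among the paralogs, with libraries that stood apart. Myc (ENSMUSG00000022346, chromosome 15, 61985391 to 61990374, plus strand) drew 1427 counts in A against 2668 in B, or 51.2 CPM (48.6 to 53.9) in A and 88.0 (84.7 to 91.4) in B. The level was 18.8 RPKM in A and 32.4 in B, or 25.6 ± 9.57. Its level in B thus lay above that of Max in B, while in A it lay below that of Max.

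Mycl, the paralog that is the weakest transforming factor of the family, was the lowest. Mycl (ENSMUSG00000028654, chromosome 4, 122995652 to 123002485, plus strand) drew 653 counts in A against 276 in B, or 23.4 CPM (21.7 to 25.3) in A and 9.10 (8.06 to 10.2) in B. That is 5.80 RPKM in A and 2.25 in B, or 4.03 ± 2.51.

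Set against each other per length, Mycn exceeded Myc 2.27-fold in A and 1.12-fold in B. On the log2 scale the ratio of Mycn over Myc was 0.68 ± 0.72, so its size was no larger than the spread between the libraries, although its sign was positive in both. Mycl was 3.25-fold below Myc in A and 14.4-fold below it in B (log2 ratio -2.77 ± 1.52). Of the summed RPKM of the 3 paralogs, Mycn made up 63.5% in A and 51.3% in B, Myc 27.9% in A and 45.6% in B, and Mycl 8.60% in A and 3.17% in B. The sum itself was 67.5 RPKM in A and 71.0 in B, so it differed by a smaller fold than Myc or Mycl alone. Myc took the larger share in B, and Mycn and Mycl took larger shares in A.

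**Figure D2:**
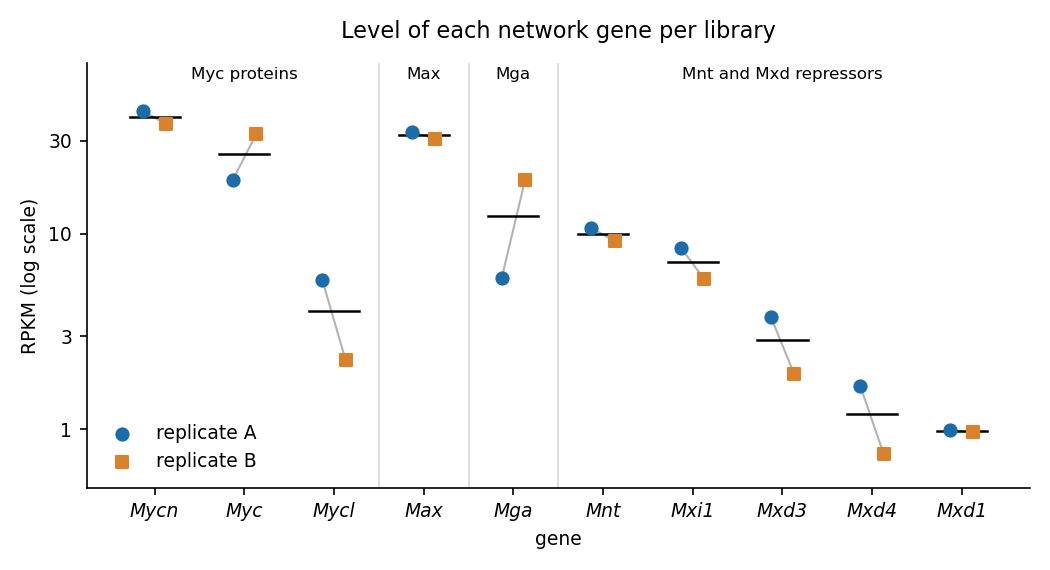
Level of each network gene in RPKM on a log axis, with replicate A as circles and replicate B as squares, left and right within each gene; black bars are the mean of both. Mycn, Max, Mnt and Mxd1 differ little between the libraries, whereas Myc and Mga are higher in B and Mycl, Mxd3, Mxd4 and Mxi1 higher in A.

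Max was nearly level between the libraries. Max (ENSMUSG00000059436, chromosome 12, 76937269 to 76962201, minus strand) drew 3327 counts in A against 3364 in B, or 119 CPM (115 to 123) in A and 111 (107 to 115) in B. Its level was 33.2 RPKM in A and 30.8 in B, or 32.0 ± 1.66. Every Max value lay below every Mycn value, the closest being 33.2 for Max in A and 36.4 for Mycn in B.

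How Max compares with its partners depends on the length used. Over all annotated exons, Max lay 2.03-fold below the sum of Myc, Mycn and Mycl in A and 2.30-fold below it in B. By the length of its longest protein-coding transcript, 1942 bases in place of 3598, Max reached 59.3 RPKM and Mycn 48.8, so the order of these genes turned round. By coding length the mean log2 ratio of Max over the Myc sum was 0.58 in place of -1.11. Whether Max transcripts outnumber those of the Myc genes is therefore not settled by these counts.

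Mga, the largest protein of the network, differed most between the libraries before the correction for GC content and length given further on, and less than Myc, Mycl and Mxd4 after it. Mga (ENSMUSG00000033943, chromosome 2, 119897228 to 119969581, plus strand) drew 2543 counts in A against 8781 in B, or 91.2 CPM (87.7 to 94.9) in A and 290 (284 to 296) in B. Per length this was 5.95 RPKM in A and 18.9 in B, or 12.4 ± 9.14. It ranked 6 in A and 4 in B among the 10 genes. Mga lay 5.58-fold below Max in A and 1.63-fold below it in B.

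Among the repressors, Mnt and Mxi1 were the most abundant. Mnt (ENSMUSG00000000282, chromosome 11, 74830920 to 74845725, plus strand), which is the most broadly expressed antagonist of Myc, drew 1387 counts in A against 1289 in B. Its level was 49.8 CPM (47.2 to 52.5) in A and 42.5 (40.2 to 44.9) in B, which is 10.8 RPKM in A and 9.19 in B, or 9.97 ± 1.11 RPKM. Mxi1 (ENSMUSG00000025025, chromosome 19, 53310518 to 53375810, plus strand), also known as Mxd2, drew 1614 counts in A against 1210 in B. Its level was 57.9 CPM (55.1 to 60.8) in A and 39.9 (37.7 to 42.2) in B, which is 8.49 RPKM in A and 5.85 in B, or 7.17 ± 1.87 RPKM. Mnt exceeded Mxi1 per length in both libraries, 1.27-fold in A and 1.57-fold in B. The order turned round by coding length, where Mxi1 reached 55.3 RPKM and lay above Mnt, and by the longest transcript they lay close, at 10.1 RPKM for Mnt and 9.71 for Mxi1.

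The remaining Mxd genes were low. Mxd3 (ENSMUSG00000021485, chromosome 13, 55325168 to 55329823, minus strand), which in other tissues marks proliferating progenitors, drew 249 counts in A against 138 in B, or 8.93 CPM (7.86 to 10.1) in A and 4.55 (3.82 to 5.38) in B. Per length this was 3.77 RPKM in A and 1.92 in B. Its exons share 105 bases with Prelid1 on the opposite strand, which drew 6293 counts in A against 5360 in B. The libraries are labelled as reverse-stranded, but whether the counting used strand is not stated, so the level of Mxd3 is uncertain. Mxd4 (ENSMUSG00000037235, chromosome 5, 34173883 to 34187720, minus strand), a repressor known from differentiating cells, drew 391 counts in A against 191 in B, or 14.0 CPM (12.7 to 15.5) in A and 6.30 (5.44 to 7.26) in B. Per length this was 1.65 RPKM in A and 0.742 in B. It shares 514 exon bases with the antisense gene Gm42846, which was not analysed here. Mxd1 (ENSMUSG00000001156, chromosome 6, 86647042 to 86669161, minus strand), a gene that rises in many cell types as they differentiate, drew 194 counts in A against 207 in B, or 6.96 CPM (6.02 to 8.01) in A and 6.83 (5.93 to 7.82) in B. Per length this was 0.984 RPKM in A and 0.965 in B. Of these 3 genes, Mxd3 and Mxd4 were lower in B and Mxd1 was level.

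Within the Mxd genes, Mxi1 made up 57.0% of the summed RPKM in A and 61.7% in B, and Mxd3 25.3% in A and 20.3% in B. Together with Mnt, the Mxd genes summed to 25.7 RPKM in A and 18.7 in B. That was 2.63-fold below the Myc paralogs in A and 3.81-fold below them in B (log2 ratio -1.66 ± 0.38), and by coding length the mean log2 ratio was -0.46.

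**Figure D3:**
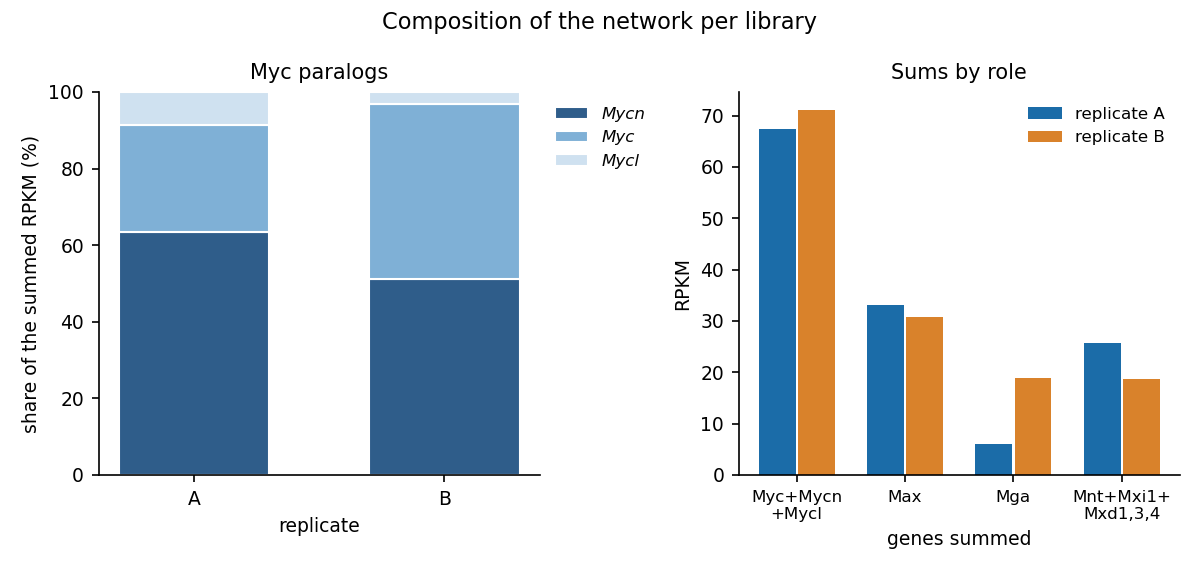
Left, share of each Myc paralog in their summed RPKM per library, in percent. Right, RPKM summed by role, with replicate A left of replicate B. Mycn holds 63.5% of the paralog sum in A and 51.3% in B, and the sum of all 3 is 67.5 and 71.0 RPKM.

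The libraries were then compared gene by gene to measure the replicate error. Both counts were set against their sum by an exact two-sided binomial test with TMM-scaled library sizes, adjusted over the 14583 genes that reached 1 CPM in A or in B. Its p-values cover counting error between these 2 libraries only, and take reads as independent molecules. Of the 10 network genes 8 differed at an adjusted p under 0.05, beside 76.5% of all genes tested. Higher in A were 6 of them (38.2% of all genes tested) and higher in B were 2 (38.3%). This share is near that of all genes, so the count says nothing particular about the network. By at least 1.5-fold 5 network genes differed (37.9% of all genes), and by at least 2-fold 3 did (13.9%). The median absolute log2 ratio was 0.63 in the network and 0.44 over all tested genes. Against the general spread between A and B, which edgeR expresses as a biological coefficient of variation of 0.359, none of the 10 genes passed, and 0.171% of all genes did. That spread was estimated from A and B pooled, so it holds the same differences that were tested. Few calls follow from this design, and the spread may still be technical. The smallest unadjusted p of the 10 in that negative binomial exact test was 0.0219, for Mga, with no correction for GC content and length. The share of all genes at or below such a p was not computed, so this value does not set Mga apart.

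Mga was 3.37-fold higher in B (log2 ratio of A over B -1.75). This ratio lay at percentile 0.977 of the tested genes. Myc was 1.82-fold higher in B (log2 ratio -0.87, exact binomial test, adjusted p = 1.47e-78). In the other direction, Mycl was 2.34-fold higher in A (log2 ratio 1.23, exact binomial test, adjusted p = 7.81e-37), at percentile 95.8. Mxd4 was 2.01-fold higher in A (adjusted p = 3.44e-17 by the exact binomial test), Mxd3 1.76-fold (adjusted p = 1.32e-08) and Mxi1 1.36-fold (adjusted p = 1.39e-15). Mycn and Mnt were called with small differences, 1.10-fold higher in A for each (adjusted p of 4.08e-05 and 0.0229 by the exact binomial test). Max (log2 ratio 0.013, adjusted p = 0.756) and Mxd1 (log2 ratio -0.06, adjusted p = 0.724) did not pass the exact binomial test. Max was called higher in A with unscaled library totals (log2 ratio 0.11, exact binomial test, adjusted p = 0.00415) and higher in B with the GC and length correction described next (log2 ratio -0.11, adjusted p = 0.00467), so its direction is not determined.

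Ratios between the libraries moved with GC content and length over all tested genes. In the tenth of genes with the lowest GC content the median gene was 1.44-fold higher in B, and in the tenth with the highest the median log2 ratio of A over B was 0.57. Among 326 tested genes with a transcript of 10000 bases or more the median log2 ratio was -0.68, and 84.4% of them were higher in B. Mga has a longest transcript of 13931 bases with a GC content of 42.2%. After a spline fit on GC content and length over all tested genes, Mga was 1.71-fold higher in B in place of 3.37-fold. Corrected the same way, Myc stayed higher in B at 2.22-fold, and Mycl, Mxd4 and Mxi1 stayed higher in A, at 1.88-fold, 2.16-fold and 1.69-fold. Mxd3 was then 1.24-fold higher in A, while Mycn and Mnt turned to 1.14-fold and 1.21-fold higher in B. With this correction 9 of the 10 genes were called, beside 70.4% of all genes. Of the 10, 4 were higher in A and 5 higher in B, beside 4913 and 5307 of the 14509 genes tested with it. The marker values that follow are not corrected for GC content and length. The summed endoderm markers, given above, were higher in B, mostly through Lama1 at 47.3 CPM in A and 142 in B. At low counts, Gata6 (19 in A and 71 in B), Sox7 (21 and 73), Sox17 (5 and 19) and Foxa2 (2 and 14) were higher in B too. Only Gata4 was lower in B, at 7.10 CPM in A and 4.91 in B. The ES cell markers summed to 8567 CPM in A and 5473 in B, with Dppa5a alone at 4252 in A and 1767 in B. Log2 ratios of A over B were 0.50 for Sox2, 0.48 for Klf4, 0.24 for Nanog and 0.13 for Pou5f1. Esrrb (-0.10) and Zfp42 (-0.05) went slightly the other way. The part of these markers in the differences between the network genes was not tested.

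**Figure D4:**
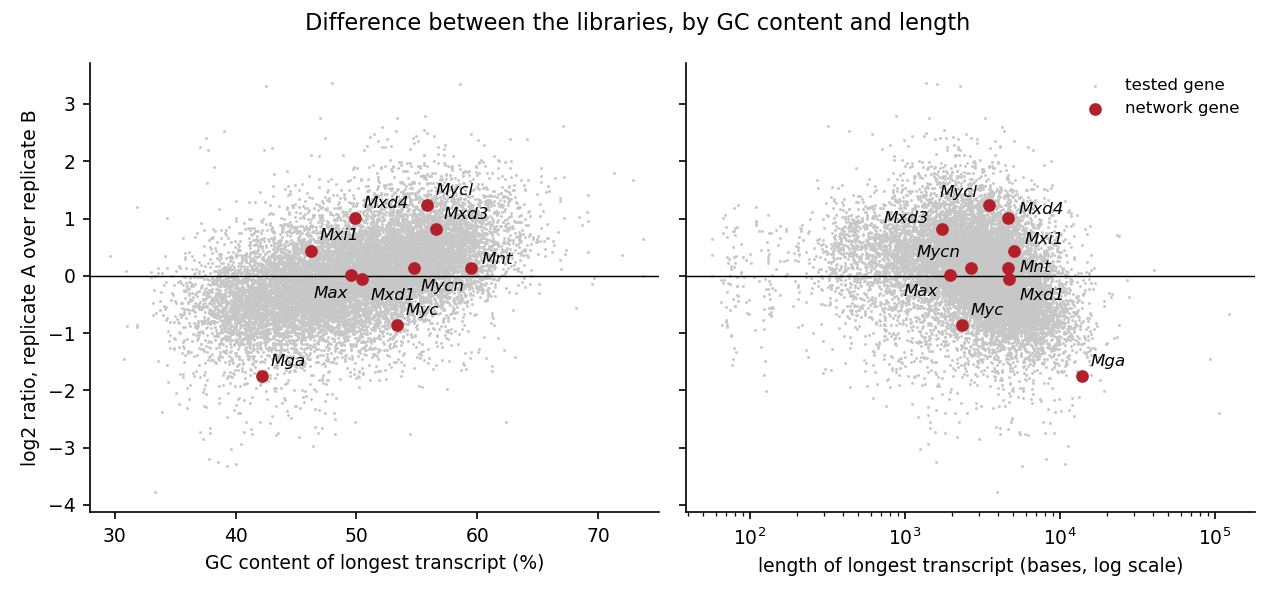
Log2 ratio of replicate A over replicate B against the GC content in percent (left) and the length in bases on a log axis (right) of each gene's longest transcript. Grey points are the 14583 genes tested, those without an annotated transcript left out, and red points the 10 network genes. Ratios rise with GC content, and Mga lies low at a GC content of 42.2% and a length of 13931 bases.

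Other genes that work with the network were taken from 7 lists with 62 symbols in all, and every one of them reached 1 CPM in both libraries. In the parallel Mlx branch, whose factors sense sugar metabolites, Mlx reached 31.0 ± 0.123 RPKM, Mlxip 5.61 ± 0.946 and Mlxipl 2.36 ± 1.72. Mlxipl was 2.80-fold higher in A and Mlxip 1.35-fold higher in B, and all 3 genes were called (76.5% of all genes, as above). Corrected for GC content and length, the log2 ratio of A over B was 1.14 for Mlxipl and -0.30 for Mlxip. Zbtb17, which encodes the Myc partner Miz1, reached 10.6 RPKM in A and 8.47 in B.

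Of the 10 genes of the Mga complex, 2 were called higher in A (38.2% of all tested genes) and 8 higher in B (38.3%), with a median log2 ratio of A over B of -0.44, beside 0.014 over all tested genes. With the GC and length correction the called genes were 1 higher in A (4913 of 14509 tested genes) and 7 higher in B (5307 of 14509). The median was then -0.28. Whether the list differs from other genes was not tested. The highest members were Wdr5, a subunit shared with histone methyltransferase complexes, at 107 ± 3.96 RPKM, the chromatin reader gene L3mbtl2 at 48.8 ± 6.01 and Tfdp1, the dimer partner of E2F factors, at 30.9 ± 15.0. The Polycomb adaptors Rybp and Yaf2 went opposite ways, with Rybp 2.60-fold higher in B and Yaf2 1.51-fold higher in A. Corrected for GC content and length, their log2 ratios of A over B were -0.99 and 0.66.

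Coactivators that Myc brings to DNA were abundant, with a median of 20.7 RPKM over 10 genes. The AAA+ ATPase genes Ruvbl2 and Ruvbl1 reached 103 ± 10.4 and 54.6 ± 1.13 RPKM, and Actl6a 59.4 ± 5.07. Of the 10, 3 were called higher in A (38.2% of all tested genes) and 6 higher in B (38.3%). With the correction 1 was higher in A (4913 of 14509 tested genes) and 8 were higher in B (5307 of 14509), beside 70.4% of all genes called. The cyclin and kinase of the elongation factor P-TEFb parted, with Ccnt1 2.29-fold higher in B and Cdk9 1.24-fold higher in A. Their corrected log2 ratios of A over B were -0.64 and 0.29. Ruvbl1 drew 2847 counts in A against 3190 in B. A pseudogene that matched it at 90% identity or more drew 1874 and 2315 counts, so the level of Ruvbl1 is uncertain.

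The corepressors of the Mxd and Mnt proteins had a median of 31.7 RPKM, with 3 of 10 called higher in A (38.2% of all tested genes) and 6 higher in B (38.3%). With the correction 2 were higher in A (4913 of 14509 tested genes) and 6 higher in B (5307 of 14509). The histone-binding genes Rbbp7 and Rbbp4 reached 176 ± 15.1 and 60.9 ± 7.04 RPKM, and the Sin3 complex subunit gene Sap30 48.2 ± 4.77. Sin3b was 1.29-fold higher in A and Ncor1 2.01-fold higher in B. Their corrected log2 ratios of A over B were 0.089 and -0.52. Hdac1 drew 2436 counts in A against 2416 in B and is uncertain. Of its 3 matched pseudogenes 1 had a row, with 5286 counts in A and 5947 in B, more than Hdac1 itself.

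Genes that set the stability of the Myc proteins had a median of 23.1 RPKM. The kinase gene Aurka, which shields the Mycn protein from degradation, reached 60.3 ± 5.47 RPKM. Gsk3a, whose kinase family marks Myc proteins for degradation, reached 43.8 ± 9.99, and the ubiquitin ligase gene Stub1 42.9 ± 16.9. Of 10 genes, 4 were called higher in A (38.2% of all tested genes) and 6 higher in B (38.3%). Stub1 was 1.66-fold higher in A and the ligase gene Huwe1 2.14-fold higher in B. After the GC and length correction the log2 ratio was 0.015 for Stub1 and -0.36 for Huwe1. No gene of this list was then called higher in A (4913 of 14509 tested genes), and 6 were called higher in B (5307 of 14509).

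Genes commonly cited as targets of Myc formed the most abundant list, with a median of 74.1 RPKM over 18 genes. The nucleolar genes Npm1 and Ncl reached 915 ± 46.4 and 393 ± 43.7 RPKM, and the glycolytic gene Ldha 591 ± 136. Of these 18, 2 were called higher in A (38.2% of all tested genes) and 14 higher in B (38.3%), with a median log2 ratio of -0.22. After the correction the median was -0.29, with 5 called higher in A (4913 of 14509 tested genes) and 12 higher in B (5307 of 14509). Ldha was 1.30-fold higher in A, and the cyclin gene Ccnd2 3.44-fold higher in B with 5.45 CPM in A and 18.8 in B. Their corrected log2 ratios of A over B were 0.16 and -1.41. E-boxes lay in 5 of the 16 promoters matched for 13 of these genes, beside 7.15% of all promoters. Npm1 has 7 matched pseudogenes, of which 5 had a row, with 17818 counts in A and 20128 in B.

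**Figure D5:**
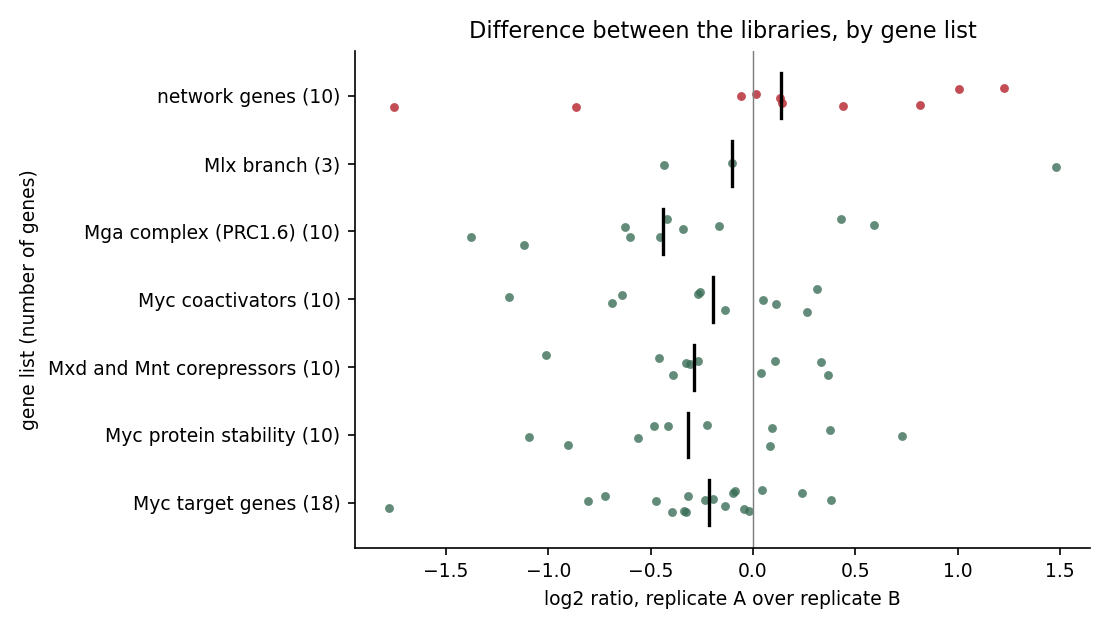
Log2 ratio of replicate A over replicate B for each gene of the network (top row) and of 6 lists around it, with black bars at the medians. Before correction for GC content and length the Mga complex has the lowest median, -0.44, and the network genes spread from -1.75 to 1.23. With the correction the lowest median is that of the Myc coactivators, -0.34, beside -0.29 for the Myc target genes and -0.28 for the Mga complex.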

How the data were processed

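Polyadenylated RNA of 2 libraries of 1 group was analysed. The authors deposited raw read counts by Ensembl gene identifier, unnormalized. Libraries were reverse-stranded and made with a TruSeq kit, per the labels. The submitters' processing notes give mm10 as build, with featureCounts 1.4.5-p1 and STAR 2.4.2a as tools. Which annotation and strand setting the counting used, and how multiply mapped reads were treated, is not given in the sources used here.

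Symbols, positions, exons and 3′ UTRs came from GENCODE M21 (GRCm38, the same assembly as mm10), with 42548 of 43629 identifiers matched. CPM used library totals, and RPKM the union of annotated exons. Log2 ratios of A over B used TMM factors of 1.03 and 0.968 (edgeR 4.0.16, R 4.3.3) and a pseudocount of 0.5. P-values were exact binomial, Benjamini-Hochberg adjusted, and compare these libraries only. The binomial test was tried on simulated counts that held counting error only, with no trend by GC content or length. That trial therefore does not check the test against the wider spread between A and B. The GC and length correction was a regression on B-splines with 5 degrees of freedom each (statsmodels 0.14.6). Pseudogene matches needed 200 aligned bases at 90% identity.

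The members and lists were chosen with earlier results of these data known. The text names all members and, per list, the 3 highest by RPKM and the largest called ratio in each direction; Zbtb17 stands alone in its list, and Ruvbl1, Hdac1 and Npm1 are also named for their pseudogenes. No gene of like pattern was sought, since over 2 libraries any pair of genes correlates fully. DESeq2 1.42.0 size factors, other filters, pseudocounts, lengths and a negative binomial test were alternatives.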

Additional observations from a re-analysis of the deposited data

How the results depend on the processing

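With 2 libraries, levels carry the replicate spread of a single pair; for Mxd1 the counting limits (6.02 to 8.01 CPM in A) are wider than that spread. Ranks by RPKM were held by 8 of 10 genes with the longest transcript, 2 with coding length, 6 with the longest protein-coding transcript (a length chosen after seeing the data), and 6 to 7 with either library left out. The log2 ratio of Max over the Myc sum was -0.49 with the longest transcript or protein-coding transcript and 0.58 with coding length, which reverses it. The ratio of Max over all 9 partners was -1.07, -0.32 and -1.09 with the longest transcript, coding length and protein-coding transcript, and that of the Mxd and Mnt sum over the Myc sum -0.46 with coding length. These ratios use the same counts, so their shifts come from the lengths alone. The edgeR negative binomial test with a common dispersion called 0 of the 10 network genes in either direction, beside 0.171% of all genes tested. The exact binomial test called 8 of them, 6 higher in A and 2 higher in B. With GC and length corrected, 5 were higher in B (5307 of 14509 tested genes), and Mycn (-0.19), Mnt (-0.28), Max (-0.11) and Mxd1 (0.017) changed sign. Max changed sign with DESeq2 size factors (-0.016) and was called higher in A with library totals (0.11), and Mxd1 with library totals (0.026). Mga kept its sign in all 9 alternatives (-1.78 to -0.77), as did Myc (-1.15 to -0.78) and Mycl (0.91 to 1.32). The filters and the negative binomial test leave these ratios unchanged, and the pseudocounts barely move them. Only DESeq2 size factors, library totals and the GC and length correction bear on the sign. Mnt missed the threshold with DESeq2 size factors (exact binomial, adjusted p = 0.0772). Leaving out a library ends the comparison of A with B. No paired analysis was possible because the series holds 1 group.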
